A study of Homo sapiens with 2 samples.

Results

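Interferon-stimulated effector genes encode the proteins with which a cell resists viruses after it has sensed interferon. A list of 44 such genes was followed in MCF-10A, an immortalised but not tumour-forming line of human breast epithelium. The cells had received an SCTR siRNA in one group and a negative control siRNA in the other. SCTR is the receptor for the hormone secretin and raises cyclic AMP when bound. A member was measured where a probe carried its symbol in the platform annotation and had a detection p-value, the chance of such a signal from negative control beads, under 0.01 on at least 1 array. By this rule 36 of the 44 genes were measured, of 8661 named genes detected on both arrays. CMPK2, CXCL11, EPSTI1, MX2, RSAD2, SAMD9L, STAT2 and TRIM22 had no probe of that symbol in the annotation and were not analysed here. The 36 genes were read by 51 probes, all 51 of which were detected on both arrays, with a highest detection p of 0.0052.

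Type I and type III interferons bind their receptors and activate the kinases JAK1 and TYK2, which phosphorylate STAT proteins. STAT2 and IRF9 are subunits of ISGF3, a complex that binds interferon-stimulated response elements (ISREs) in the promoters of these genes. Epithelial cells can make interferon beta and interferon lambda themselves when their RNA sensors are engaged, and many of the induced genes encode further sensors and signalling factors, so that the response feeds itself.

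Each group was 1 Illumina bead array. There is thus no replicate spread, no test could be run, and every difference given is a size alone. Intensities are given before normalization. Log2 differences are given after background correction and quantile normalization unless said otherwise, and so need not match the intensities beside them. No array of untransfected cells was analysed here, so neither siRNA can be compared with untreated cells. The number of probes named SCTR was 0, and each direction rests on the labels of the arrays. The SCTR siRNA array had a median intensity of 124 units and 33.5% of 47316 probes detected, and the control array 122 units and 32.2%. Of 14 mammary epithelial markers 5 had a named probe (CDH3, EGFR, EPCAM, ITGB4 and LAMB3). Their summed intensity was 50064.5 units on the SCTR siRNA array and 19590 units on the control array. Of 7 leukocyte markers CD14, CD68 and HLA-DRA had a named probe, summing to 20108 units on the SCTR siRNA array and 13492 units on the control array, while PTPRC had none. CD14 made up most of that gap, with 13060 units on the SCTR siRNA array and 3934 units on the control array, and CD68 went the other way, with 6292 units on the SCTR siRNA array and 9079 units on the control array. The fibroblast marker COL1A1 was at 166 units on the SCTR siRNA array and 119 units on the control array, where it was not detected. The part of these markers in the differences below was not tested.

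Most members were lower after SCTR siRNA. Taking the brightest probe of each gene, 21 of 36 members (58.3%) were lower by 1.5-fold or more with SCTR siRNA and 0 were higher by that much, while among all 8661 named genes 22.6% were at least 1.5-fold lower and 19.5% higher. The median log2 difference of the members, SCTR siRNA minus control, was -0.66 (1.59-fold lower), against -0.09 over all named genes. In all 33 of the 36 (91.7%) had a negative difference, against 55.5% of all named genes. Of these 33 members 12 were lower by less than 1.5-fold. IFI6, IFITM3 and PARP14 were slightly positive, of which IFI6 and IFITM3 were negative under median scaling. At 2-fold or more 8 members (22.2%) were lower and 0 higher, against 8.44% and 9.74% of all named genes. These 8 were USP18, OASL, XAF1, ISG20, HERC5, SAMD9, IRF7 and IRF1. The count was 7 without background correction, with an offset of 50 and in the authors' values, each time without IRF1, and 11 under median scaling, with IFI27, ISG15 and UBE2L6 added. XAF1 was within 2-fold, at -0.97, by the mean of its probes. The spread within the list was wide, from -2.60 for USP18 to 0.11 for IFI6. Under median scaling in place of quantile normalization 25 of 36 were at least 1.5-fold lower, against 23.4% of all named genes. In RNA of whole cultures, fewer cells with a transcript and less of it per cell cannot be told apart.

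**Figure D1:**
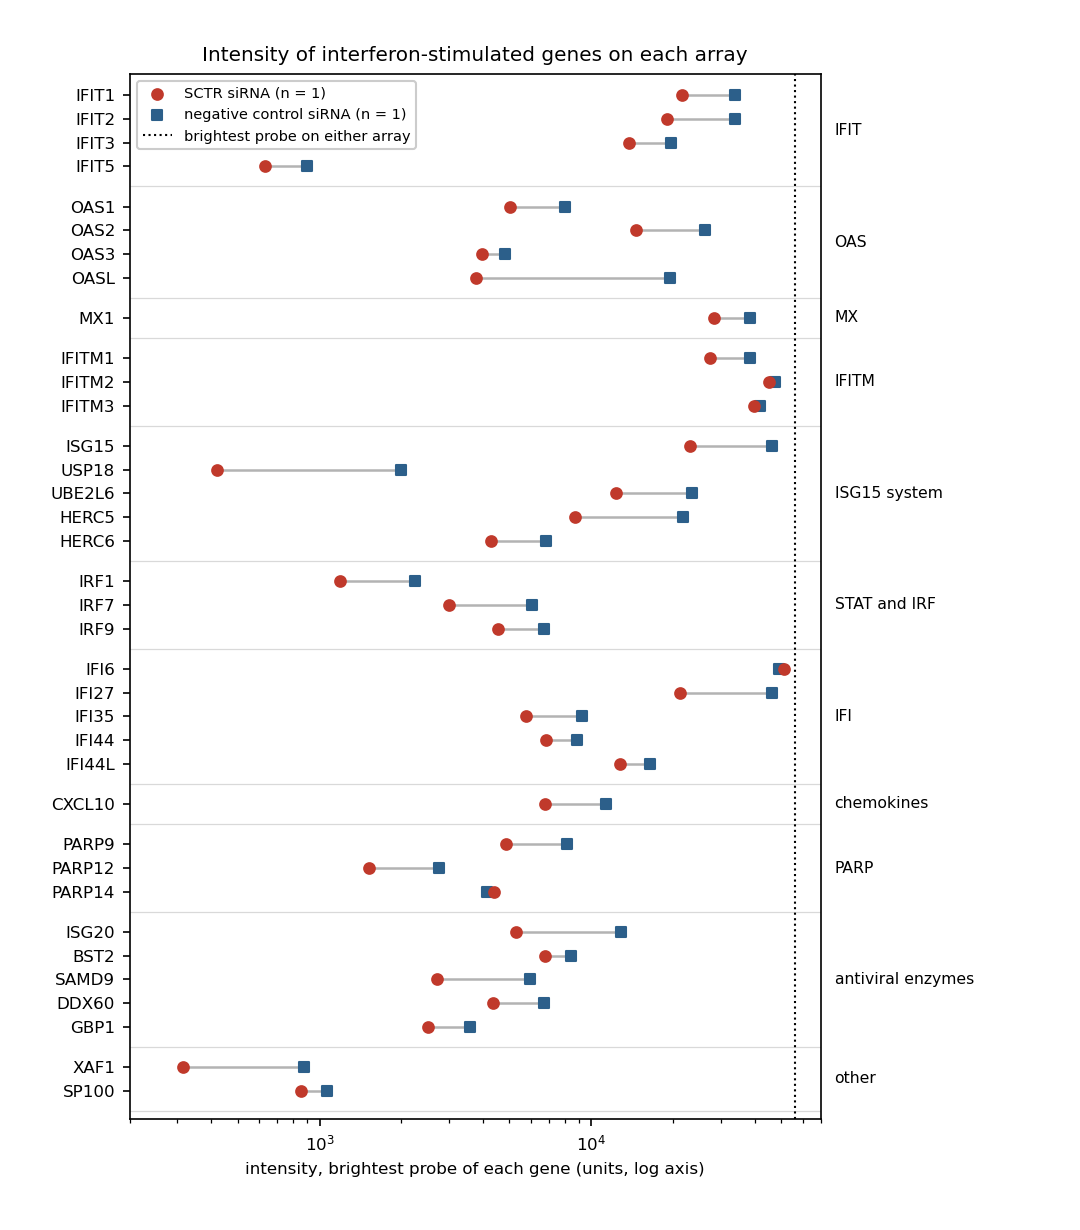
Intensity of the brightest probe of each measured member (log axis, units) on the SCTR siRNA array (circles) and the negative control siRNA array (squares), 1 array each, grouped by class. The circle lies left of the square for most genes, the longest gaps are those of USP18 and OASL, and IFI6, IFITM2 and IFITM3 lie near the brightest probe of either array (dotted line).

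Promoter windows from RefSeq (GRCh38.p14), reaching from 250 bases before to 50 after the transcription start, were held for 36 of the 44 listed genes. An ISRE core, written GAAANNGAAA and searched on both strands, was present in a window of 24 of these 36 genes (66.7%), against 1195 of 27305 genes overall (4.38%). Overlapping matches were counted as separate. The 200 bases before the start are shown for ISG15, IFIT1, HERC5 and ISG20, lower members with differences between -0.47 and -1.27, for PARP14, which was not lower, and for IRF1, which held a pattern of another kind. Capitals mark the ISRE core, and in IRF1 the STAT-binding pattern TTCNNNGAA, which reads the same on both strands. PARP14 also held that pattern, from 40 to 32 bases before the start, and there it is left in lower case.
ISG15, chr1:1013297-1013496, plus strand: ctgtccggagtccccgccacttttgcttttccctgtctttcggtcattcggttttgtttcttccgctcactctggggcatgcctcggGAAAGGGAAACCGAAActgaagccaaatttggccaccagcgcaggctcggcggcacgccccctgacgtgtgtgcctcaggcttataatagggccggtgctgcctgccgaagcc
IFIT1, chr10:89392423-89392622, plus strand: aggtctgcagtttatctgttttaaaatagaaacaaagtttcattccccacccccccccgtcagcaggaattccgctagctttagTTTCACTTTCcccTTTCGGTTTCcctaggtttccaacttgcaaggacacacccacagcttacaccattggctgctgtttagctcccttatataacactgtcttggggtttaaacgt
HERC5, chr4:88456919-88457118, plus strand: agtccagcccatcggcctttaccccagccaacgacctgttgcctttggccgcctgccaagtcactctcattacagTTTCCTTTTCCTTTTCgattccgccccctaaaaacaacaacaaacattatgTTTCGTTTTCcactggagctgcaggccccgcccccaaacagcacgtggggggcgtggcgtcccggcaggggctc
ISG20, chr15:88638816-88639015, plus strand: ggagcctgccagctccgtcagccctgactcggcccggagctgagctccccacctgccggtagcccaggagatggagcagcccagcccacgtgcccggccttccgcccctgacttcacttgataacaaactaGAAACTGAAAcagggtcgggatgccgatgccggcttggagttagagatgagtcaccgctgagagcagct
PARP14, chr3:122680639-122680838, plus strand: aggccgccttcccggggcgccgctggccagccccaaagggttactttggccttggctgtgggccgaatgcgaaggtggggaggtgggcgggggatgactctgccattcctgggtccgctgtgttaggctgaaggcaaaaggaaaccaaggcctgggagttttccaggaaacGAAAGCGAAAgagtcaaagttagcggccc
IRF1, chr5:132490774-132490973, minus strand: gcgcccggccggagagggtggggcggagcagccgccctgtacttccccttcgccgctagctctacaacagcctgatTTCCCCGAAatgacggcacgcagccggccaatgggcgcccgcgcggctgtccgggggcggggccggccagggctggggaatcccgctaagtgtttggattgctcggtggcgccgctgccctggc

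HERC5 held 3 ISRE cores, ISG15 and IFIT1 2 each, overlapping in ISG15 and partly in HERC5, and ISG20 and PARP14 held 1. Members with a core were not further from 0. The 22 measured members with a core in a window had a median log2 difference of -0.52, and 8 with a window but no core, XAF1, UBE2L6 and IRF1 among them, had -0.69. IFIT2, IFITM2, IRF7, OAS2, OASL and USP18 were measured and had no window in the table, with a median of -0.88. The TTCNNNGAA pattern was present in a window of 12 of the 36 genes (33.3%), against 9.38% of genes overall.

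Among the transcription factors of the response, all 3 measured were lower with SCTR siRNA, against 55.5% of all named genes. Of the 3, 2 were at least 2-fold lower, against 8.44% of all named genes. IRF7, the factor that amplifies interferon production once it is induced, had an intensity of 2994 units on the SCTR siRNA array and 6076 units on the control array at its brighter probe, a log2 difference of -1.06. Its second probe read 944 units with SCTR siRNA and 1891 units with control siRNA and gave -1.12, so both probes placed the gene about equally low. IRF1, an activator that interferon gamma also induces, had 1188 units on the SCTR siRNA array and 2243 units on the control array, a difference of -1.01 (-0.95 in the authors' values, within the 2-fold line). IRF9, the DNA-binding subunit of ISGF3, had 4543 units with SCTR siRNA and 6703 units with control siRNA and a difference of -0.57 (1.48-fold lower), just inside the 1.5-fold line, and was at -0.65 under median scaling. Its partner STAT2 was among the members without a named probe.

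By brightest probes and quantile normalization, the ISG15 system was the only class of several measured genes with every member at least 1.5-fold lower. These were 5 of 5, against 22.6% of all named genes, with a median log2 difference of -0.87. Under median scaling all 4 IFIT genes and all 3 measured STAT and IRF genes were also lower by that much, against 23.4% of all named genes. ISG15 is a ubiquitin-like protein that is attached to other proteins, UBE2L6 is its conjugating enzyme, HERC5 its main ligase in human cells, and USP18 the protease that removes it and also damps the type I receptor. USP18 had 418 units on the SCTR siRNA array and 1989 units on the control array, a log2 difference of -2.60 (6.06-fold lower), the largest of any member by its brightest probe. In the authors' values, which carry no background correction, it was at -2.29, while OASL was at -2.37 there and so further from 0. HERC5 had 8745 units on the SCTR siRNA array and 21790.4 units on the control array, a difference of -1.23 (2.34-fold lower). ISG15 itself, with 23175 units on the SCTR siRNA array against 46387 units on the control array, was at -0.87 (1.83-fold lower), and its control signal stood at 83.5% of the brightest probe of that array. UBE2L6 was at -0.82 by its bright probe, which read 12392 units with SCTR siRNA and 23498 units with control siRNA, and at -1.47 by a dim probe of 302 units with SCTR siRNA and 638 units with control siRNA (-1.12 in the authors' values). HERC6, a relative of HERC5 that serves as the ISG15 ligase in mouse, was at -0.68, with 4271 units on the SCTR siRNA array and 6789 units on the control array.

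The IFIT proteins bind viral RNA and block its translation. All 4 genes had negative differences, against 55.5% of all named genes, with a median of -0.56. At least 1.5-fold lower were 2 of the 4, or 1 in the authors' values, against 22.6% and 16.3% of all named genes. IFIT2 had 18935 units on the SCTR siRNA array and 33918 units on the control array, a log2 difference of -0.66. IFIT5, a tRNA- and RNA-binding member, was dimmer, reading 627 units with SCTR siRNA and 900 units with control siRNA and a difference of -0.64 (-0.53 in the authors' values, inside the 1.5-fold line). IFIT1, which recognises the cap of foreign RNA, had 21640.1 units on the SCTR siRNA array and 33763 units on the control array. By this probe it was at -0.47, or -0.64 by the unnormalized intensities. Its dim probe, reading 401 units with SCTR siRNA and 616 units with control siRNA, gave -0.83, or -0.62 unnormalized. IFIT3, a partner that stabilises IFIT1, was at -0.39 by a probe of 13811 units with SCTR siRNA and 19596 units with control siRNA and at -1.18 by one of 1624 units with SCTR siRNA and 3472 units with control siRNA. For both genes the side of the 1.5-fold line turned on the probe chosen and on the scaling, since under median scaling their bright probes gave -0.72 for IFIT1 and -0.59 for IFIT3, and all 4 IFIT genes were then at least 1.5-fold lower.

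The OAS family turns double-stranded RNA into a signal for RNase L, except for OASL, which lacks that enzymatic activity and instead enhances RIG-I signalling. All 4 had negative differences, and 3 were at least 1.5-fold lower, against 55.5% and 22.6% of all named genes. OASL stood apart from the other members of the family. It had 3779 units on the SCTR siRNA array and 19567 units on the control array, a log2 difference of -2.33 (5.02-fold lower), and its second probe, reading 460 units with SCTR siRNA and 2622 units with control siRNA, gave -2.83. OAS2 had 14669 units on the SCTR siRNA array and 26239 units on the control array at its brightest probe, a difference of -0.71. A second OAS2 probe gave -1.14, whereas another, dim one had 514 units with SCTR siRNA and 445 units with control siRNA and gave 0.20. Each of the 3 OAS2 probes was annotated to a different transcript. OAS1 was read by 4 probes at -0.67, -0.93, -1.11 and -0.33, of which the last was the dimmest, with 253 units on the SCTR siRNA array and 275 units on the control array. OAS3 was nearest to 0 in the family, at -0.30, reading 3966 units with SCTR siRNA and 4799 units with control siRNA, and at -0.14 by a probe close to background.

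MX1 and the IFITM genes, whose signals were among the brightest of the list, were all within 1.5-fold. MX1, a dynamin-like GTPase that traps viral components, had 28251 units on the SCTR siRNA array and 38537 units on the control array. Its log2 difference was -0.31 (1.24-fold lower), or -0.45 by the unnormalized intensities. The IFITM proteins hinder the fusion of enveloped viruses with the cell. Of the 3 genes 0 were past 1.5-fold, against 22.6% of all named genes lower and 19.5% higher by that much. IFITM1 had 27333 units on the SCTR siRNA array and 38365 units on the control array. Its difference was -0.32, or -0.49 by the unnormalized intensities. IFITM2 had 45093 units with SCTR siRNA and 47669 units with control siRNA and a difference of -0.03, and IFITM3 had 39585 units with SCTR siRNA and 41823 units with control siRNA. The normalized difference of IFITM3 was 0.07, although its intensity was lower on the SCTR siRNA array, and it was -0.16 under median scaling. BST2, or tetherin, which holds budding virus at the cell surface, had 6738 units on the SCTR siRNA array and 8454 units on the control array, a difference of -0.31.

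**Figure D2:**
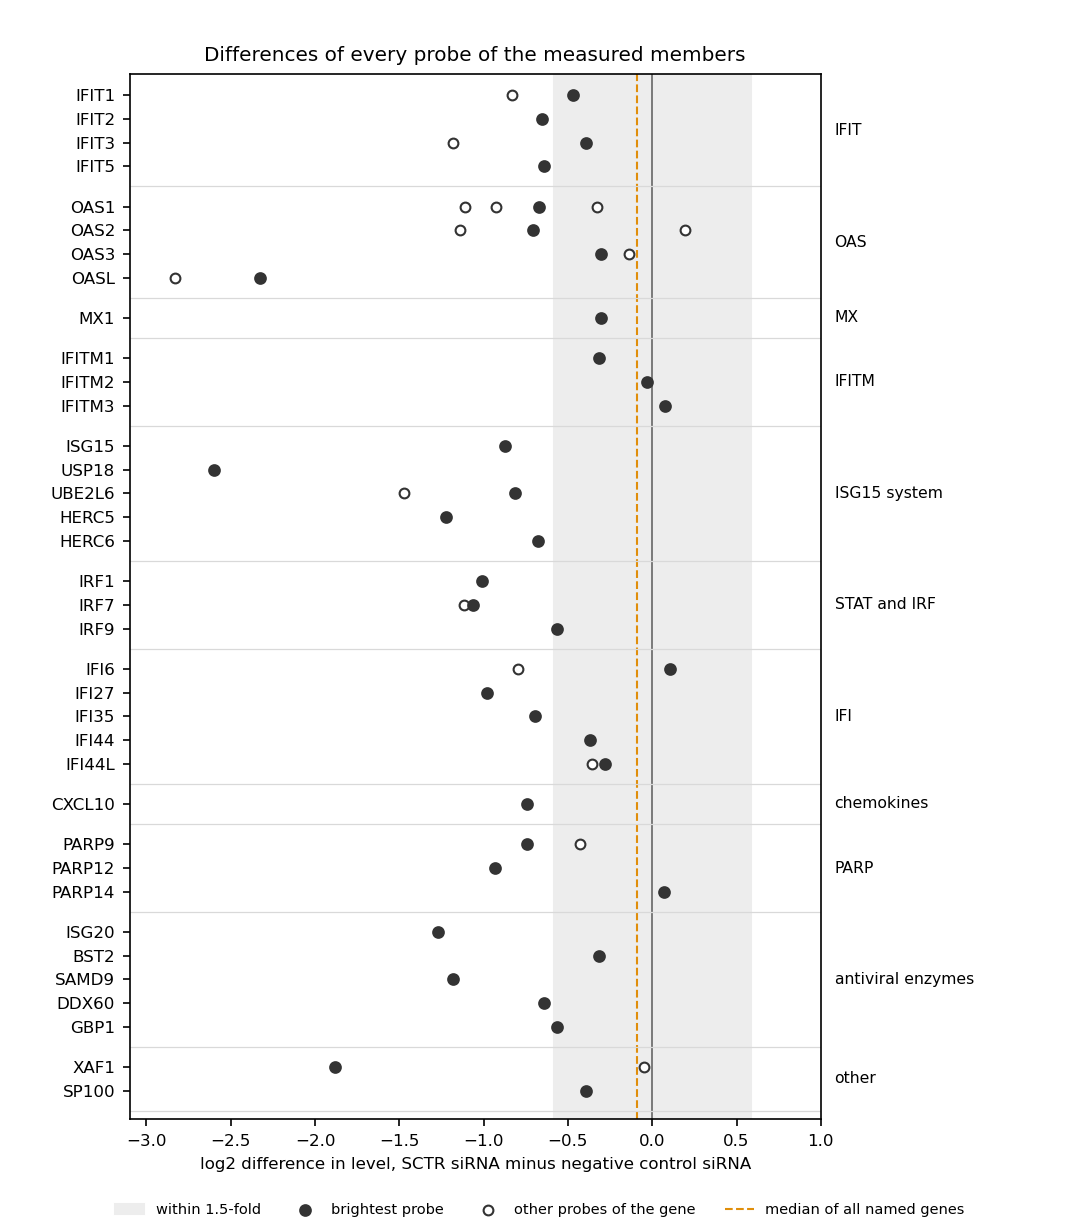
Log2 difference in level, SCTR siRNA minus negative control siRNA, for all 51 probes of the 36 measured members, with the brightest probe of each gene filled, the others open, the range within 1.5-fold shaded and the median of all named genes dashed. Every member of the ISG15 system lies left of the shaded range, every IFITM gene and MX1 within it, and the probes of IFI6, OAS2 and XAF1 lie far apart.

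The genes named IFI had a median of -0.37, with 2 of 5 at least 1.5-fold lower, against 22.6% of all named genes. IFI27, a mitochondrial and nuclear envelope protein, had 21162 units on the SCTR siRNA array and 46248 units on the control array. Its log2 difference was -0.98 (1.97-fold lower), or -1.13 by the unnormalized intensities. IFI35, a partner of NMI in signalling, was at -0.69, reading 5758 units with SCTR siRNA and 9275 units with control siRNA. IFI44 was at -0.37, reading 6798 units with SCTR siRNA and 8839 units with control siRNA, and its relative IFI44L at -0.28, reading 12740.2 units with SCTR siRNA and 16463 units with control siRNA, and at -0.36 by a second probe. IFI6, an endoplasmic reticulum protein that restricts flaviviruses, gave opposite signs at its probes. The brighter one had 51084 units on the SCTR siRNA array and 49278 units on the control array and a difference of 0.11, and the other had 16546 units with SCTR siRNA and 31384 units with control siRNA and a difference of -0.80 (1.74-fold lower).

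CXCL10, a chemokine that draws activated T cells through CXCR3, had 6734 units on the SCTR siRNA array and 11352 units on the control array, a log2 difference of -0.74 (1.67-fold lower). The PARP genes of the list encode ADP-ribosyltransferases or their relatives. PARP12 was at -0.93, reading 1518 units with SCTR siRNA and 2758 units with control siRNA, and PARP9, which works with the ligase DTX3L, at -0.74, reading 4863 units with SCTR siRNA and 8128 units with control siRNA, and at -0.43 by a second probe. PARP14 was the exception, with 4400.2 units on the SCTR siRNA array and 4126 units on the control array, a difference of 0.07 at an intensity far below the brightest probes.

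ISG20, a 3′ to 5′ exonuclease that degrades viral RNA, had 5309 units on the SCTR siRNA array and 12852 units on the control array, a log2 difference of -1.27 (2.41-fold lower). SAMD9, a restriction factor for poxviruses, was at -1.18, reading 2701 units with SCTR siRNA and 5973 units with control siRNA. Both were further from 0 than the helicase-like DDX60, at -0.64, reading 4354 units with SCTR siRNA and 6724 units with control siRNA, and the GTPase GBP1, at -0.57, reading 2512 units with SCTR siRNA and 3588 units with control siRNA (-0.61 under median scaling). XAF1, an antagonist of the apoptosis inhibitor XIAP, had 315 units on the SCTR siRNA array and 874 units on the control array, and a difference of -1.88 (-1.49 in the authors' values). Its second probe was near background, reading 215 units with SCTR siRNA and 205 units with control siRNA, and gave -0.05. SP100, a component of nuclear bodies, was at -0.39, with 852 units on the SCTR siRNA array and 1063 units on the control array.

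Among probes of other named genes, differences were smaller only at the highest absolute levels. Intensities ended at 56250 units on the SCTR siRNA array and 55560 units on the control array, each reached by 1 probe, and 48 probes on the SCTR siRNA array and 69 on the control array exceeded 40000 units. The files carry no flag for saturation. For these other probes the SD of the log2 differences was between 0.77 and 0.81 in each range of mean log2 level under 15. From 15 upward (42 probes) it was 0.43. The share at least 1.5-fold apart in either direction was between 41.5% and 44.5% in the ranges under 15, and 14.3% from 15 upward. The 5 member probes from 15 upward, those of IFI6, IFITM2, IFITM3, ISG15 and MX1, had a median difference of -0.03, against -0.04 for the other named probes at that level. ISG15 was the only one of them that was at least 1.5-fold lower, and 0 of the 42 other probes were. Between 13 and 15 the median of 12 member probes was -0.72, against 0.00 for other named probes, and 8 of the 12 (66.7%) were at least 1.5-fold lower, against 20.0% of the others. From 11 to 13 it was -0.68 over 17 probes, against -0.08. From 9 to 11 it was -0.97 over 10 probes, against -0.07. The range under 9 held 7 member probes with a median of -0.33, against -0.11. By these medians under quantile normalization, the members lay below other probes at levels under 15 and level with them above it. The upper range rests on 5 member probes, of which ISG15 and MX1 lay at 15.02, just past its edge. Under median scaling all 5 were negative, from -0.03 for IFI6 to -1.08 for ISG15. Other probes at that level were not compared under that scaling.

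**Figure D3:**
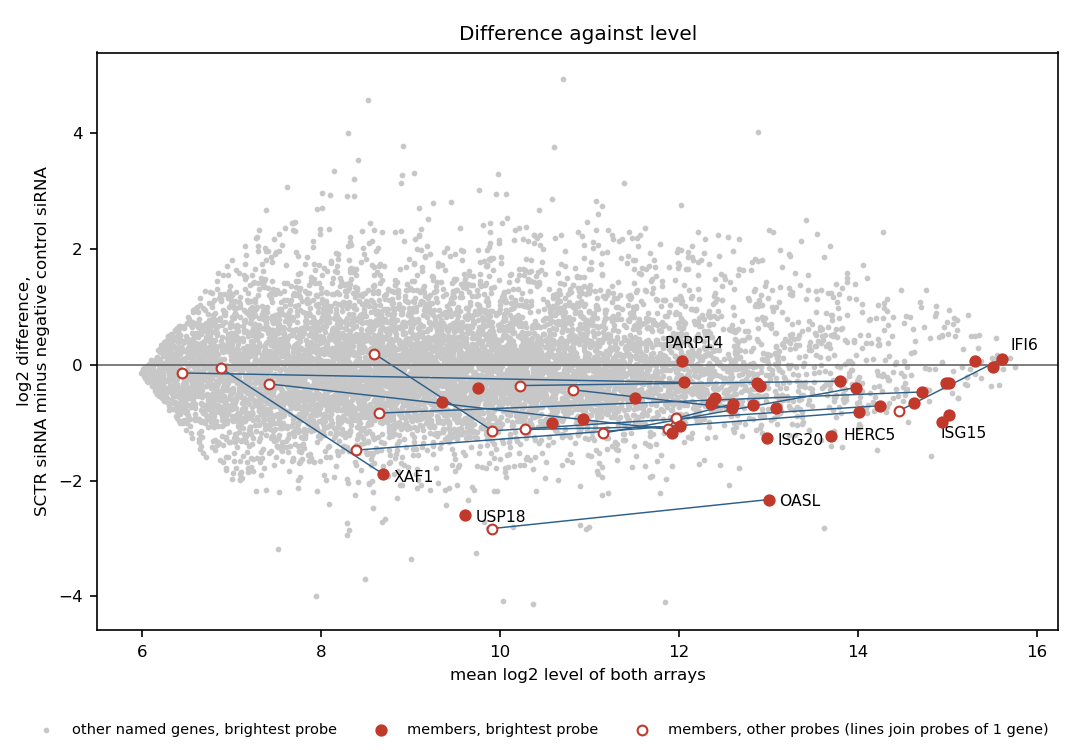
Log2 difference (SCTR siRNA minus negative control siRNA) against the mean log2 level of both arrays for the 36 members and all other named genes detected on both arrays. Members lie mostly below 0 between levels of 9 and 15, all differences narrow at the bright end where IFI6 sits, and lines join probes of 1 gene.

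Probes over 40000 units on either array belonged to IFI6, IFI27, IFITM2, IFITM3 and ISG15, and these 5 had a median log2 difference of -0.03. IFI27 and ISG15 were at least 1.5-fold lower among them, 2 of 5, against 1 of 41 probes of other genes over that intensity (2.44%). The other 46 member probes had a median of -0.69, and 28 of them (60.9%) were at least 1.5-fold lower, against 22.7% of all named probes detected on both arrays. Of the 12 members with several probes, the brightest probe lay nearer to 0 than the dimmest in 7 under quantile normalization, among them IFI6, IFIT1, IFIT3, OASL and UBE2L6. In the other 5, OAS1, OAS2, OAS3, PARP9 and XAF1, the dimmest probe lay nearer to 0. Apart from that of PARP9, those dimmest probes had from 178 to 445 units on the control array. The count of 7 turned on the processing. By the unnormalized intensities the dimmer probe of IFI44L, IFIT1 and IRF7 lay nearer to 0 instead. IFIT1 was then at -0.64 by its brighter probe and -0.62 by its dimmer one. For IRF7 the dimmer probe was also nearer in the authors' values. The median span between the probes of 1 gene was 0.58 on the log2 scale, and probes differed in sign for IFI6 and OAS2. What each probe binds beyond its annotated transcript was not analysed here.

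Genes that start and carry the response were mixed. Of 9 interferon genes looked for, IFNB1 and IFNL1 had a named probe. IFNL1 had 199 units on the SCTR siRNA array and 1374 units on the control array, and IFNB1 had 253 units with SCTR siRNA and 806 units with control siRNA, with log2 differences of -3.70 and -2.25 (-2.80 and -1.71 in the authors' values). Both were dim on the SCTR siRNA array, with detection p-values of 0.0026 for IFNL1 and 0 for IFNB1. Among receptors and their kinases 3 of 8 (37.5%) were at least 1.5-fold lower and 1 (12.5%) higher, against 22.6% and 19.5% of all named genes. JAK2 was at -1.15 (-0.72 in the authors' values), by a dim probe of 218 units on the SCTR siRNA array and 349 units on the control array. JAK1 was at -0.71 and the interferon gamma receptor subunit IFNGR2 at -0.62, whereas the other subunit, IFNGR1, was at 0.65. Under median scaling 0 of the 8 were at least 1.5-fold higher, the highest being at 0.41, so IFNGR1 was then within that line. The subunits of the type I receptor, IFNAR1 and IFNAR2, were at 0.04 and 0.05 by their brightest probes, and a second IFNAR2 probe, with 383 units on the SCTR siRNA array and 281 units on the control array, gave 0.53.

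Sensors and adaptors had a median log2 difference of -0.13 over 12 genes, 2 lower (16.7%) and 1 higher (8.33%) by at least 1.5-fold, shares below those of all named genes (22.6% and 19.5%). The adaptor MYD88 was at -0.98 and the RNA sensor IFIH1 at -0.72, while the signalling adaptor TRAF3 was at 0.62 (0.37 in the authors' values, within the 1.5-fold line) and the DNA-sensing adaptor STING1 at 0.42. Among STAT and IRF factors outside the list of members 3 of 5 were at least 1.5-fold lower, or 2 of 5 in the authors' values, against 22.6% and 16.3% of all named genes. STAT3, the main effector of interleukin 6 signalling, was at -1.35, -1.61 and -1.34 by its 3 probes. STAT6 was at -0.95, IRF2 at -0.72 (-0.48 in the authors' values) and IRF5 at -0.13. Against 22.6% lower and 19.5% higher of all named genes, 4 of 8 negative regulators (50%) were at least 1.5-fold lower and 0 higher. These were the feedback inhibitor SOCS3 at -1.78, by a probe of 168 units on the SCTR siRNA array and 331 units on the control array (-1.0 in the authors' values), the phosphatase PTPN2 at -1.16, PIAS1 at -0.96 and the ligase TRIM21 at -0.79. A second SOCS3 probe, with a detection p just over 0.01 on the SCTR siRNA array, gave -0.51.

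A list of 44 further interferon-stimulated genes, of which 35 were detected on both arrays, had a median log2 difference of -0.53. At least 1.5-fold lower were 17 (48.6%) and higher 3 (8.57%), against 22.6% and 19.5% of all named genes. In the authors' values 14 of the 35 were lower by that much, against 16.3% of all named genes. It ran from the acyltransferase PLAAT4 at -2.83, the immunoproteasome subunit PSMB9 at -2.10, the scramblase PLSCR1 at -1.74 and the GTPase GBP2 at -1.57 to the nuclear body gene PML at 1.49. Unlike the members, this list held genes on both sides of the 1.5-fold line. Members and lists were chosen with earlier results of these data known. This contrast therefore cannot be told apart from the choice of lists. Of 10 reference genes 1 was lower and 1 higher by at least 1.5-fold, TBP at -0.65 and TFRC at 0.91, and their median was -0.07. GUSB was at -0.43. ACTB was at 0.50 by its brightest probe, and at 0.83 and 0.61 by its others, both past the 1.5-fold line.

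**Figure D4:**
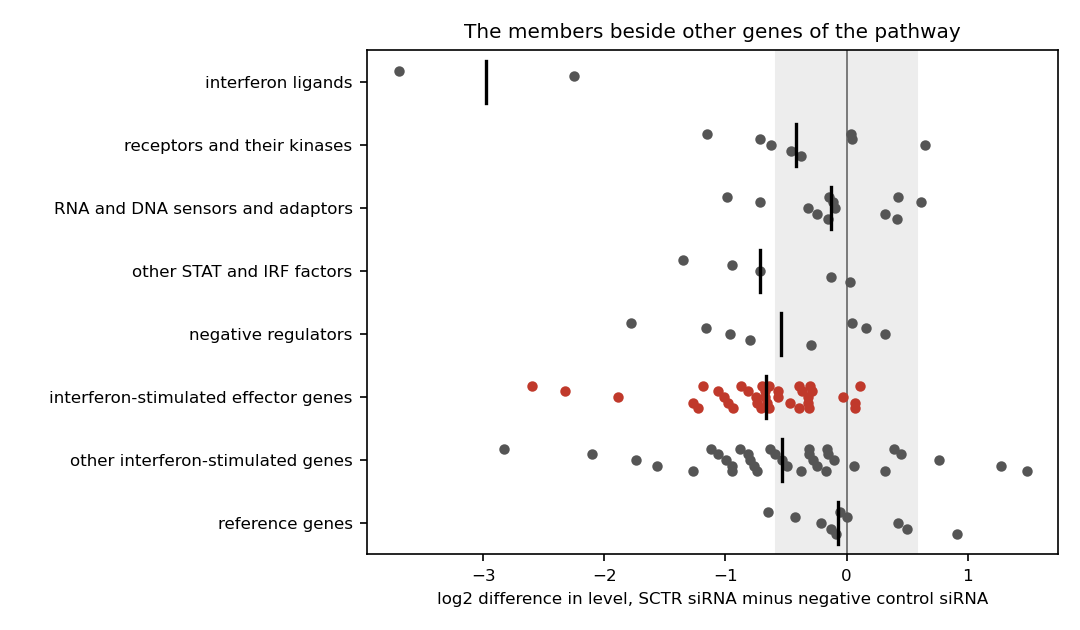
Log2 difference (SCTR siRNA minus negative control siRNA) of each gene by its brightest detected probe, for the members and 7 other lists, with the median of each list as a bar and the range within 1.5-fold shaded. The members lie mostly left of 0, while sensors, receptors and reference genes lie on both sides.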

How the data were processed

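Total RNA was cleaned, treated with DNase and labelled as biotinylated cRNA, per the labels' protocols, and 1 array was made for each group. The deposited non-normalized table holds an intensity and a detection p-value for each probe and array, and GenomeStudio 2011.1 is named in the submitters' processing notes. Of 47323 probes 7 had no signal and were left out. The authors' processed table holds log2 levels for 16871 probes without background correction, with equal column medians of 8.57. Gene symbols came from a platform annotation of that table (13060 probes with 1 symbol), so other probes carry no name here.

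Background was removed in limma 3.58.1 (R 4.3.3) by normexp at offset 16, which took the level of negative control beads from the detection p-values. Arrays were then quantile normalized on the log2 scale. A test of these steps on simulated data changed few probes, equally up and down, and set no upper limit of signal. It therefore cannot show how the steps treat these arrays. Each gene was read from the brightest of its probes detected on both arrays. A design of 1 array per group allows no p-value, and precision is limited by the number of arrays. Alternatives were other background treatments, median scaling, the authors' values, other detection filters, other probe choices and a fold of 2. The members and lists were chosen with earlier results of these data known. Every measured member was named, and from each other list up to 4 genes with the largest absolute difference, besides the interferon ligands. A further gene that the rule names is not reported here. IFNAR1, IFNAR2 and PML were chosen after their values were seen.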

Additional observations from a re-analysis of the deposited data

How the results depend on the processing

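Of the 36 members, 16 were lower by 1.5-fold or more and 32 had a negative difference under the main setting and all 11 alternatives that gave them a value. In the main setting alone, 22.6% of all named genes were lower by 1.5-fold or more and 55.5% had a negative difference. The median log2 difference, -0.66 in the main setting, was -0.66 without background correction, -0.66 with an offset of 50, -0.76 under median scaling, -0.69 in the authors' values, -0.65 with the mean over all detected probes and -0.66 over the 35 members whose mean log2 level reached 9. Chosen after seeing the data, the dimmest detected probe of each gene gave -0.65, and leaving out probes over 40000 units gave -0.68 over 32 members. The count of members at least 1.5-fold lower ranged between 20 and 25 against 21, that of higher ones was 0 throughout, and at a fold of 2 there were 8 lower, or between 7 and 11 under the alternatives. OAS2 turned positive, at 0.20, with its dimmest probe. IFI6, positive in the main setting, was at -0.03 under median scaling, -0.35 with the mean over probes and -0.80 with its dimmer probe, and IFITM3 was at -0.16 under median scaling. The causes were not tested. The lowest member was USP18 except without background correction, in the authors' values and with the dimmest probes, where it was OASL. A looser or absent detection filter, and members detected on 1 array set at a bound, left all values as they were, since every member was detected on both arrays. No paired analysis was possible because each group is 1 array. Without replicates, no value here has an error, and signals near the top of the intensity range or near background limit what a difference can show.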
